A study of Mus musculus with 8 samples.

Results

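The renin-angiotensin and endothelin systems were followed through 9 genes in neonatal cardiomyocytes (NCMs) after gestational exposure to diesel exhaust (DE) or filtered air (FA). With earlier results of these data known, genes were chosen by place in the 2 hormone systems, a rule that uses no measured value. They were *Agt*, *Ace*, *Agtr1a*, *Agtr2* and *Atp6ap2* of the angiotensin system and *Edn1*, *Ece1*, *Ednra* and *Ednrb* of the endothelin system, 9 of 27179 genes in the count table and 9 of the 14966 that passed the filter on low counts. RNA-seq was performed on 4 FA and 4 DE libraries, each from the NCMs of 1 male C57Bl/6J heart at postnatal day 0. Dams breathed FA or DE from embryonic day 0.5 until late gestation, and no offspring carried an engineered allele. Atria and vessels were trimmed away and fibroblasts were depleted by plating, so a library held a cardiomyocyte-enriched suspension and not a pure cell type. The FA libraries are numbered 2, 3, 4 and 6 and the DE libraries 1, 3, 5 and 7. A further number in the sample name is 11 for all FA libraries and for DE replicates 1 and 7, and 12 for DE replicates 3 and 5. What this number stands for is not given in the sources used here, and every FA library has the number 11.

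The angiotensin system is a circulating and local cascade. Renin cuts angiotensinogen (*Agt*), angiotensin-converting enzyme (*Ace*) makes the active peptide angiotensin II, and the type 1 receptor (*Agtr1a*) raises vascular tone and drives growth of cardiac cells, while the type 2 receptor (*Agtr2*) often opposes it and is abundant in fetal tissues. The endothelin system is built in the same way. Endothelial cells secrete a precursor encoded by *Edn1*, endothelin-converting enzyme (*Ece1*) activates it, and the receptors encoded by *Ednra* and *Ednrb* pass the signal on, the former in cardiomyocytes and smooth muscle and the latter chiefly in endothelial cells.

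Promoter sequences are shown for the 4 genes on which the results below turn. These were *Edn1* and *Ednra*, whose levels in the DE libraries of number 12 lay above and below all other libraries, in turn. The others were *Agtr2*, with the largest fold difference between exposures, and *Ednrb*, the receptor set beside *Ednra*. Each is the 250 bases upstream of a start site in RefSeq on GRCm38.p6, the assembly also called mm10, written 5′ to 3′ on the strand of the gene. The windows are chr13:42301226-42301475 (plus strand) for *Edn1*, chr8:77724453-77724702 (minus strand) for *Ednra*, chrX:21484374-21484623 (plus strand) for *Agtr2* and chr14:103843702-103843951 (minus strand) for *Ednrb*. Capitals mark matches to any of 5 motifs searched on both strands, namely the promoter box TATAAA, the AP-1 motif (TGA and TCA with any base between them), the core GCGTG bound by the dioxin receptor, the core ACGTG bound by hypoxia-inducible factors, and AGATAA, which GATA factors bind.
Edn1: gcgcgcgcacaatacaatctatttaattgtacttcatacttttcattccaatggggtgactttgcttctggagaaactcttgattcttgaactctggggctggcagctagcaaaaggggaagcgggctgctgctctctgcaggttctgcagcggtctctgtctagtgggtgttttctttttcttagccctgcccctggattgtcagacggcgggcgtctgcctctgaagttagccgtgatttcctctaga
Ednra: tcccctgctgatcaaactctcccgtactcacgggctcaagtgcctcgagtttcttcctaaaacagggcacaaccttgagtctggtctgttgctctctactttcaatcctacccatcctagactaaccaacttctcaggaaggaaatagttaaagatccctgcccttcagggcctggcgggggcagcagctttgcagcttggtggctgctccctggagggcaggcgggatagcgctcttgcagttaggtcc
Agtr2: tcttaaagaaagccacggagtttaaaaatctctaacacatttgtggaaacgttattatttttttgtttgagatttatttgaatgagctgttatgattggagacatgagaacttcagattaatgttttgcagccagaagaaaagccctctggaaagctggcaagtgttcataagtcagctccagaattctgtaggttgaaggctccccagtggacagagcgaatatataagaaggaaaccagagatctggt
Ednrb: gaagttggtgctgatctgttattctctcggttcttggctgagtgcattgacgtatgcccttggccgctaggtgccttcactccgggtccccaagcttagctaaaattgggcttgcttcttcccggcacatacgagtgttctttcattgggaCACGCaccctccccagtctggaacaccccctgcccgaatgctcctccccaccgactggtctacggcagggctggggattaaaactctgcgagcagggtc
The *Ednrb* window held 1 match, GCGTG on the opposite strand (CACGC as printed) at position -99 from the start site. The windows of *Edn1*, *Ednra* and *Agtr2* held none of these letters. Over all 32851 promoters in the RefSeq table, 28.2% held GCGTG, 16.6% ACGTG, 12.4% TATAAA, 9.99% AGATAA and 6.75% the AP-1 motif. GC content was 50.4% for *Edn1*, 54.8% for *Ednra*, 38.4% for *Agtr2* and 56.8% for *Ednrb*, against a median of 52.4% over all promoters. Of the other genes with an entry, *Agt* held TATAAA at -30, *Ace* held it on the opposite strand at -31 and *Atp6ap2* held ACGTG on the opposite strand at -86. *Ece1*, with 4 start sites in the table, held the most matches. GCGTG was found at -199, -242 and -74 on the opposite strand and at -33 on its own strand, in 3 of the 4 windows, the first 2 of which overlap and share a match. The window with 2 GCGTG also held ACGTG on both strands, at -90 and -89, which overlap as a palindrome.

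No member of either system passed the quasi-likelihood test of edgeR between the exposures, with calls made at a Benjamini-Hochberg adjusted p of at most 0.05 and a difference of at least 25%. Over all tested genes, 5.8% were called, 3.58% as higher and 2.22% as lower in DE. At an unadjusted p under 0.05 the members numbered 2 (22.2%), *Agtr2* and *Edn1*, against 25.6% of all genes. DESeq2 and the likelihood ratio test of edgeR also called 0 of the 9. The fitted values lay higher in DE for 5 members and lower for 4, with a median log2 fold change of 0.11 against 0.00 over all tested genes. The levels of the groups overlapped for all 9 members, while they did not overlap for 14.7% of all genes. Library totals ran from 17943024 to 39839737 counts, which limits precision chiefly for *Agt* and *Agtr2*, and the biological coefficient of variation was 15.9%.

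**Figure D1:**
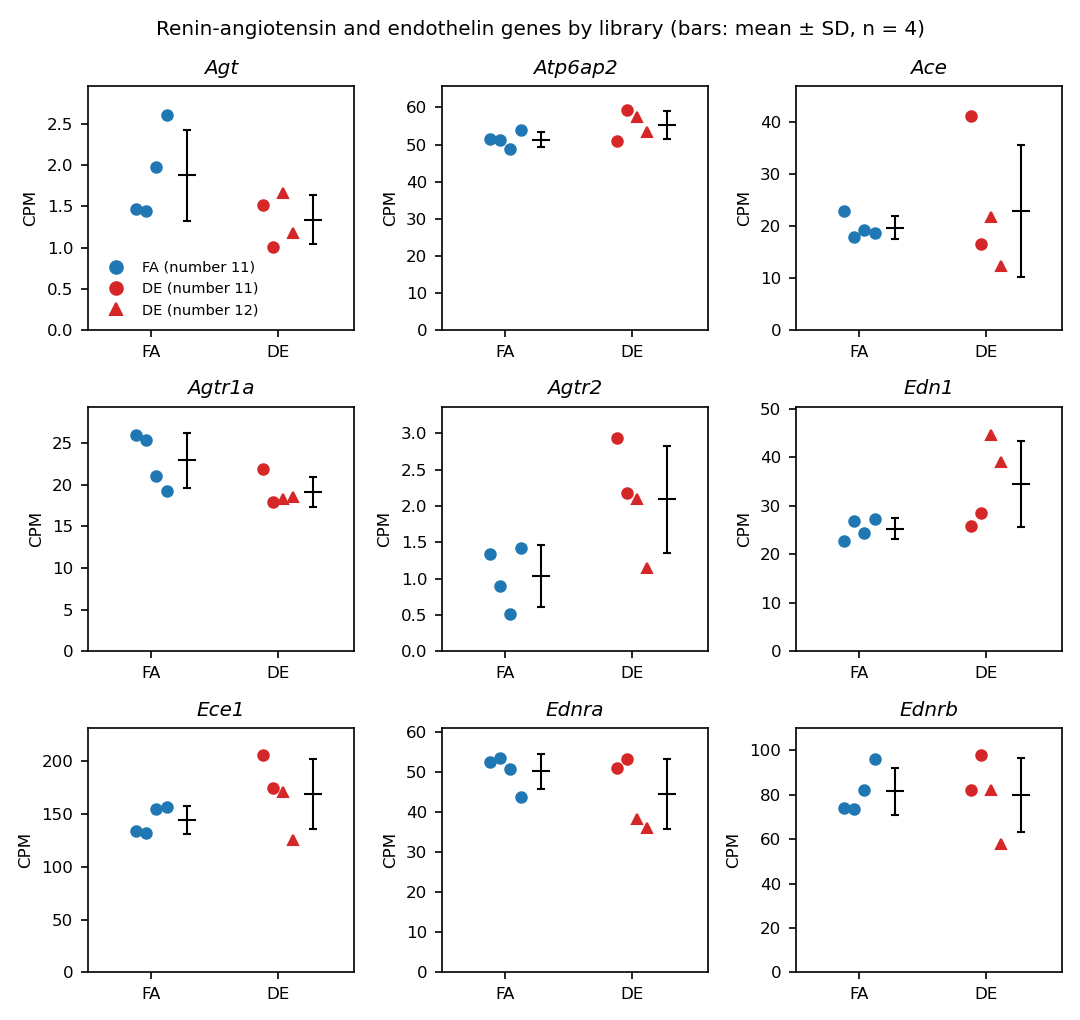
Level of each gene in CPM (linear axes from 0) in the 4 FA (blue) and 4 DE (red) libraries, with triangles for sample names with the number 12 and bars for the mean ± SD (n = 4). In every panel the ranges of the 2 groups overlap. The triangles stand above the other DE libraries for *Edn1* and below them for *Ednra*, *Agtr2* and *Ece1*.

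Levels differed widely among the members. Per kilobase of the longest coding transcript (GENCODE vM21), *Ece1* was highest in FA at 29.9 ± 2.67 CPM per kb (SD, n = 4). *Atp6ap2* followed at 22.1 ± 0.866, *Ednrb* at 19.9 ± 2.54, *Ednra* at 13.8 ± 1.21, *Edn1* at 11.8 ± 0.995 and *Agtr1a* at 10.4 ± 1.49 CPM per kb. *Ace* was at 4.02 ± 0.454, *Agt* at 0.991 ± 0.289 and *Agtr2* at 0.317 ± 0.129 CPM per kb. Among neighbours in this order, the FA ranges overlapped for *Atp6ap2* and *Ednrb*, for *Ednra* and *Edn1*, and for *Edn1* and *Agtr1a*. In DE the ranges overlapped for *Atp6ap2* and *Ednrb*, *Ednrb* and *Ednra*, *Ednra* and *Edn1*, *Agtr1a* and *Ace*, and *Agt* and *Agtr2*. *Ednra* stood above *Edn1* in 5 of the 8 libraries, and the DE means were in the opposite order, 12.3 CPM per kb for *Ednra* and 16.2 for *Edn1*. Both endothelin receptors thus stood above the type 1 angiotensin receptor per length, and the type 2 receptor was the lowest member in FA.

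**Figure D2:**
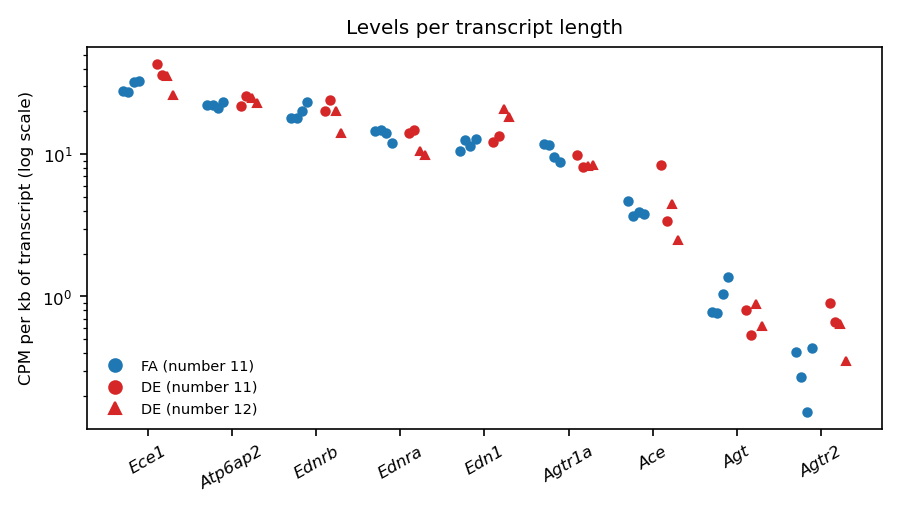
Level per kilobase of transcript (log axis, CPM per kb) of the 9 genes in each library, ordered by the FA mean, with circles for number 11 and triangles for number 12. The FA means fall from 29.9 CPM per kb for *Ece1* to 0.317 for *Agtr2*, with a gap between *Agtr1a* (10.4) and *Ace* (4.02).

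*Agt* (Entrez gene 11606, chromosome 8 from 124556587 to 124569706), the only known precursor of the angiotensins, is made chiefly by liver. Its levels, in CPM (counts scaled to library size by TMM factors), were 1.47, 1.44, 1.98 and 2.61 in FA replicates 2, 3, 4 and 6. They were 1.51, 1.66, 1.17 and 1.01 CPM in DE replicates 1, 3, 5 and 7, from 19 to 58 counts a library. The groups overlapped, with 2 of the DE libraries below the lowest FA library. The log2 fold change of DE over FA was -0.45 (SE 0.25, 95% interval -0.99 to 0.09, adjusted p = 0.273, edgeR), and it was -0.25 without FA replicate 6. The sum of 5 hepatocyte markers was 4.01 to 6.00 CPM in FA and 4.26 to 12.3 CPM in DE. *Alb* was at 0.0574 CPM or less and *Serpina1a* at 0 counts in all libraries, while *Ahsg* was at 2.54 to 10.4 CPM, *Apoa1* at 0.564 to 2.69 CPM and *Ttr* at 0.349 to 1.03 CPM. None of these was called, 1 had an unadjusted p under 0.05 (*Apoa1*, log2 fold change 1.07, edgeR), and their part in the value of *Agt* was not tested. In bulk samples of this kind, fewer cells of a type and less RNA per cell cannot be told apart.

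*Ren1*, the mouse renin gene, had 9 counts over all 8 libraries and was not tested. *Atp6ap2* (chromosome X from 12587759 to 12617051) encodes the prorenin receptor, which is also an accessory protein of the vacuolar proton pump. It was at 51.4, 51.2, 48.9 and 53.8 CPM in FA replicates 2, 3, 4 and 6 and at 51.0, 57.5, 53.4 and 59.3 CPM in DE replicates 1, 3, 5 and 7. The DE libraries covered the upper part of the FA range and beyond (log2 fold change 0.11 with a standard error of 0.09, edgeR adjusted p = 0.476). Without DE replicate 7 it was 0.07. Of its 50-base stretches, 2.86% also occurred in the transcript of *Gm36448*, and how such reads were counted is not stated.

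*Ace* (chromosome 11 from 105967948 to 105989964) converts angiotensin I to angiotensin II on the surface of endothelial cells. It was at 23.0, 18.0, 19.2 and 18.7 CPM in FA replicates 2, 3, 4 and 6, and at 41.1, 21.9, 12.3 and 16.5 CPM in DE replicates 1, 3, 5 and 7. DE replicate 1 stood above all other libraries, and 2 DE libraries stood below every FA library. The mean was 19.7 ± 2.23 CPM in FA and 22.9 ± 12.7 in DE (SD, n = 4 each), and the log2 fold change of 0.22 had a standard error of 0.30 (adjusted p = 0.673, edgeR). Without DE replicate 1 the log2 fold change was -0.23, so its direction rested on that library.

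*Agtr1a* (chromosome 13 from 30336356 to 30382867) encodes the main angiotensin II receptor of the mouse heart. Its levels were 26.0, 25.4, 21.0 and 19.3 CPM in FA replicates 2, 3, 4 and 6, and 21.8, 18.3, 18.5 and 18.0 CPM in DE replicates 1, 3, 5 and 7. In DE, 3 libraries lay just below the lowest FA library, and DE replicate 1 lay inside the FA range. The mean was 22.9 ± 3.28 CPM in FA and 19.2 ± 1.81 in DE, which is -0.26 on the log2 scale (standard error 0.12, 95% interval -0.53 to 0.01, adjusted p = 0.212, edgeR). Over the reported fit and its 21 alternatives this value ran from -0.34 to -0.19, and *Agtr1a* was called in 0 of these. *Agtr1b*, the second type 1 receptor gene of the mouse, had 3 counts in all, and 1.53% of the 50-base stretches of *Agtr1a* are shared with it.

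*Agtr2* (chromosome X from 21484624 to 21488833) encodes the type 2 receptor and had the largest fold difference of the 9. It was at 1.34, 0.897, 0.508 and 1.43 CPM in FA replicates 2, 3, 4 and 6, which rest on 50, 18, 9 and 29 counts. In DE replicates 1, 3, 5 and 7 it was at 2.94, 2.09, 1.15 and 2.19 CPM, from 97, 73, 46 and 41 counts. The groups overlapped through DE replicate 5, while the other 3 DE libraries were above every FA library. The mean was 1.04 ± 0.425 CPM in FA and 2.09 ± 0.733 in DE (SD, n = 4 each). The log2 fold change of 0.95 had a standard error of 0.34 (95% interval 0.21 to 1.69, unadjusted p = 0.0162, adjusted p = 0.112, edgeR), so *Agtr2* did not pass. Over the alternatives its log2 fold change ran from 0.72 to 1.26 and its adjusted p from 0.0528 to 0.389. Among the 6 libraries with the number 11 alone it was 1.26 with an adjusted p of 0.0773 by edgeR.

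The ratio of *Agtr2* to *Agtr1a* within each library was examined because library scaling cancels in it. On the log2 scale it was -4.27, -4.78, -5.30 and -3.73 in FA replicates 2, 3, 4 and 6 and -2.89, -3.12, -4.00 and -3.02 in DE replicates 1, 3, 5 and 7. The mean was 1.26 higher in DE, and only DE replicate 5 fell inside the FA range. An exact two-sided permutation test gave p = 0.0571 (adjusted p = 0.229 over 4 ratios), where 0.0286 is the smallest value that 4 libraries against 4 allow. The type 1 receptor remained the more abundant in every library.

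*Edn1* (Entrez gene 13614, chromosome 13 from 42301476 to 42307990) encodes the precursor of endothelin-1, a peptide that constricts vessels and promotes hypertrophy of cultured cardiomyocytes. Its levels were 22.7, 26.8, 24.5 and 27.2 CPM in FA replicates 2, 3, 4 and 6. In DE replicates 1 and 7, which carry the number 11, they were 25.9 and 28.5 CPM. In DE replicates 3 and 5, which carry the number 12, they were 44.7 and 39.1 CPM. The former pair lay at the level of the FA libraries and the latter stood above all 6 others. Over all 8 libraries the mean was 25.3 ± 2.13 CPM in FA and 34.6 ± 8.87 in DE, which is 0.45 on the log2 scale (standard error 0.17, 95% interval 0.09 to 0.82, unadjusted p = 0.0186, adjusted p = 0.119, edgeR). *Edn1* was called only without DE replicate 1 among the alternatives (log2 fold change 0.57, adjusted p = 0.0443, edgeR).

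Within the number 11, *Edn1* had a log2 fold change of DE over FA of 0.10 (adjusted p = 0.759, edgeR, 4 FA and 2 DE libraries). With the number as a term in the model it was also 0.10 (adjusted p = 0.715, edgeR). DE libraries of number 12 were therefore compared with those of number 11, with FA as the third group of the model. *Edn1* was higher in number 12 by 0.63 on the log2 scale (standard error 0.14, adjusted p = 0.0443, edgeR), a comparison in which 2.06% of all genes were called. It was the sole member called by this test. The call was lost on leaving out any one of the 4 DE libraries or FA replicate 4, with log2 differences of 0.53 to 0.72, and leaving out a DE library leaves 1 library in an arm, with 0 to 19 genes of the whole table called. Number and exposure cannot be told apart for the libraries numbered 12, since no FA library has that number.

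The endothelial marker sum was set beside *Edn1*, as endothelial cells are its usual source. It was 1358 to 1749 CPM over 10 markers in FA, 1627 and 1755 CPM in DE replicates 1 and 7, 2152 CPM in DE replicate 3 and 1473 CPM in DE replicate 5. Between DE and FA, 8 of the 10 markers were higher in DE by fit (median log2 fold change 0.27), 0 were called by edgeR and 5 had an unadjusted p under 0.05, against 25.6% of all genes. These 5 (*Pecam1*, *Emcn*, *Egfl7*, *Esam* and *Eng*) were all higher in DE, the direction of *Edn1*. Between the numbers, 6 were higher in number 12 and 0 were called. In DE replicate 5 the sum lay inside the FA range, with *Egfl7* (91.2 CPM) and *Eng* (330.1 CPM) above the highest FA library, *Cdh5* (193.6 CPM), *Tek* (77.6 CPM), *Tie1* (140.5 CPM) and *Cldn5* (95.5 CPM) below the lowest, and the other 4 markers between. The part of endothelial cells in the value of *Edn1* was not tested.

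**Figure D3:**
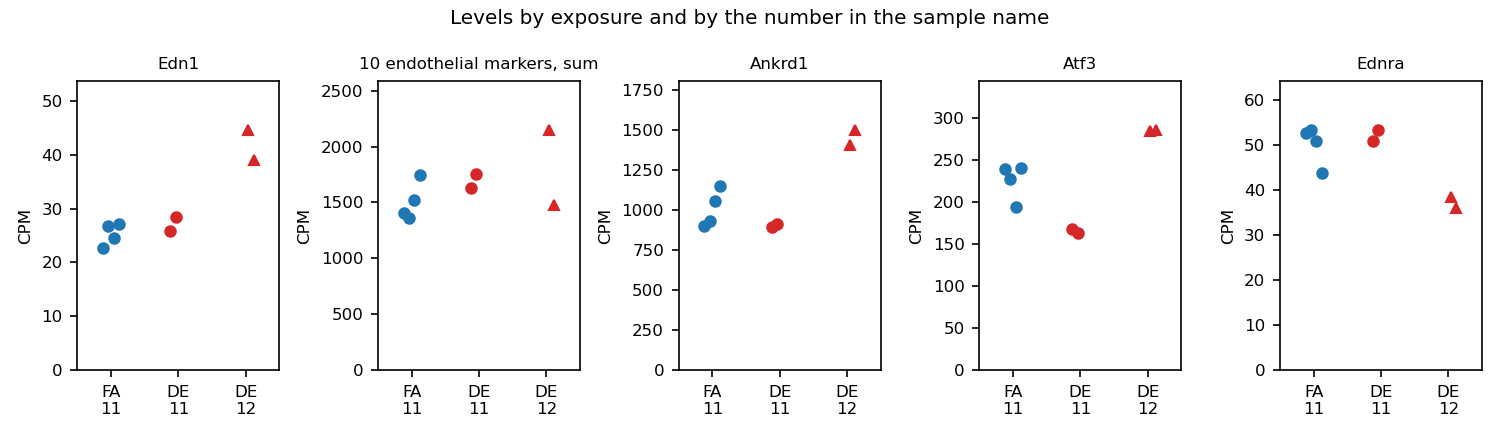
Level in CPM (linear axes from 0) of *Edn1*, the sum of 10 endothelial markers, *Ankrd1*, *Atf3* and *Ednra* in each library, split by exposure and by the number in the sample name (4 FA, 2 DE with 11, 2 DE with 12). *Edn1*, *Ankrd1* and *Atf3* are higher and *Ednra* is lower in both DE libraries of number 12 than in all other libraries, which is not so for the endothelial marker sum.

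*Ece1* (chromosome 4 from 137862237 to 137965229), the enzyme that activates big endothelin-1, was the most abundant member. It was at 133.8, 132.2, 154.2 and 156.2 CPM in FA replicates 2, 3, 4 and 6 and at 206.0, 170.5, 124.8 and 173.9 CPM in DE replicates 1, 3, 5 and 7. Of the DE libraries, 3 were above every FA library and DE replicate 5 was below them all. The log2 fold change of 0.23 had a standard error of 0.14 (edgeR adjusted p = 0.334). It was 0.12 without DE replicate 1 and 0.35 without DE replicate 5. *Edn1* over *Ece1* within a library differed by 0.21 on the log2 scale (exact two-sided permutation test, p = 0.543, adjusted p = 0.571), with an SD of 0.61 in DE and 0.15 in FA.

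*Ednra* (chromosome 8 from 77663029 to 77724452) encodes the receptor through which endothelin-1 contracts muscle cells. Its levels were 52.6, 53.4, 50.8 and 43.8 CPM in FA replicates 2, 3, 4 and 6, 50.9 and 53.2 CPM in DE replicates 1 and 7, and 38.3 and 35.9 CPM in DE replicates 3 and 5. As with *Edn1*, both DE libraries of number 12 lay outside the other 6, here on the low side. The log2 fold change of DE over FA was -0.17 (SE 0.14, edgeR adjusted p = 0.461), and it was 0.05 within the number 11. On leaving out DE replicate 3, 5 or 7 it was -0.11, -0.08 and -0.27 in turn. Between the numbers the log2 difference was -0.49 (standard error 0.13), which did not pass the quasi-likelihood test (adjusted p = 0.0713) and passed the likelihood ratio test of edgeR (adjusted p = 0.0227), by which 8.51% of all genes were called. It also passed the quasi-likelihood test of edgeR with offsets for transcript length (log2 difference -0.49, adjusted p = 0.0449), an alternative chosen after seeing the data. Between the numbers, all 8 fibroblast markers were lower in number 12 (median log2 difference -0.27). Of the smooth muscle and pericyte markers 6 were lower and 2 higher (median -0.28), and of the cardiomyocyte markers 4 were lower and 5 higher. None of these was called by the quasi-likelihood test, and their part in the value of *Ednra* was not tested.

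*Ednrb* (chromosome 14 from 103814615 to 103844508) encodes the receptor that in endothelial cells clears endothelin-1 and releases vasodilators. It was at 74.2, 73.8, 82.1 and 96.1 CPM in FA replicates 2, 3, 4 and 6 and at 82.0, 82.0, 57.8 and 98.1 CPM in DE replicates 1, 3, 5 and 7. The ranges covered each other, with a log2 fold change of -0.03 (SE 0.15, edgeR adjusted p = 0.926) whose sign changed between alternatives. DE replicate 5 was the lowest library for *Ednrb*, *Ece1*, *Ednra* and *Ace*. The ratio of *Ednra* to *Ednrb* within a library differed by -0.14 on the log2 scale (exact two-sided permutation test, p = 0.571, adjusted p = 0.571). It ran from -0.29 without FA replicate 6 to -0.05 without DE replicate 3. The ratio of *Ace* to *Agt* differed by 0.54 (p = 0.2, adjusted p = 0.4 by the same exact test), and by 0.28 without DE replicate 1.

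**Figure D4:**
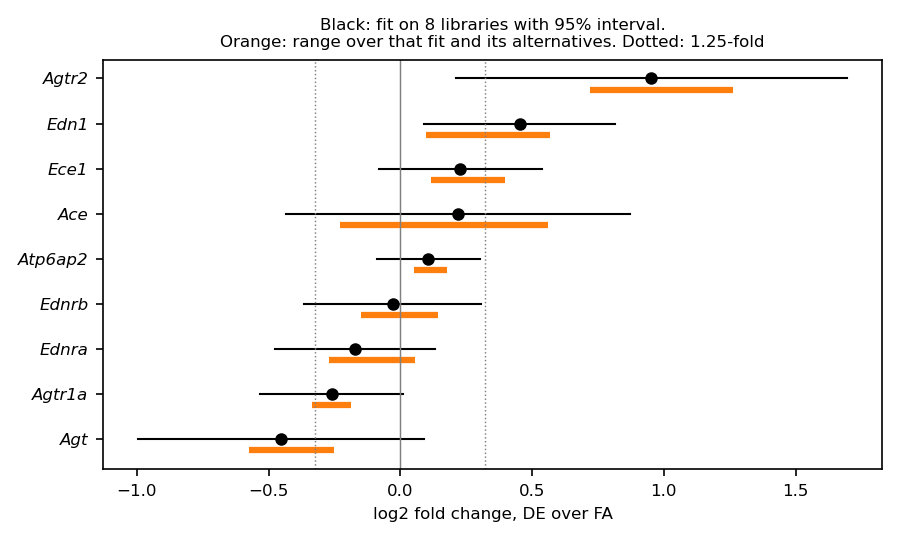
Log2 fold change of DE over FA for the 9 genes from edgeR, with the 95% interval over 8 libraries (black) and the range over the reported fit and its 21 alternatives (orange), and dotted lines at the size of difference required for a call. *Agtr2* has the largest value (0.95), and the ranges of *Ace*, *Ednra* and *Ednrb* lie on both sides of 0.

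Between the numbers, 6 of the 9 members were lower and 3 higher in the libraries of number 12. Beside *Edn1* and *Ednra*, the log2 differences were -0.77 for *Ace*, -0.69 for *Agtr2*, -0.36 for *Ece1* and *Ednrb*, -0.12 for *Agtr1a*, 0.12 for *Agt* and 0.01 for *Atp6ap2*, and none of these passed. Long transcripts were counted less in these libraries, with a median log2 difference of 0.26 over genes with transcripts up to 1500 bases and -0.49 over those above 10000 bases. The members lay in the middle classes. Genes of 1500 to 3000 bases (*Agt*, *Agtr1a*, *Atp6ap2* and *Edn1*) had a median of 0.10 and those of 3000 to 5000 bases (*Ace*, *Agtr2*, *Ednra*, *Ednrb* and *Ece1*) of -0.07. With offsets for transcript length, *Edn1* was higher by 0.49 (adjusted p = 0.0422, edgeR), and 2.8% of all genes were called. Between DE and FA the same classes ran from a median of 0.15 up to 1500 bases to -0.28 above 10000 bases, and were at 0.06 and -0.03 for the classes that hold the members.

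Markers of several other cell types had higher fitted values in DE. The sum of 8 fibroblast markers was 2008 to 3461 CPM in FA and 3655 to 6177 CPM in DE, with all 8 higher by fit (median log2 fold change 0.66) and 2 called (*Dcn* and *Col1a1*). Of 6 erythroid markers all 6 were higher by fit (median 0.41) and 1 was called (*Slc4a1*), and of 4 endocardial markers 3 were higher (median 0.28) and 0 called by edgeR, with 2 at an unadjusted p under 0.05. The defining markers of cardiomyocytes were abundant, with sums of 63702 to 69437 CPM in FA and 53571 to 62357 CPM in DE over 9 genes. Of these, 8 had a lower fitted value in DE and 3 were called. *Myh6*, the fast myosin heavy chain, was the largest part of the cardiomyocyte sum in FA, at 23299 CPM on average against 14622 CPM in DE. It fell by 0.67 on the log2 scale (adjusted p = 0.00315, edgeR). *Pln*, phospholamban, fell by 0.38 (adjusted p = 0.0360, edgeR), while *Myh7* rose. Sums for smooth muscle and pericytes, where *Agtr1a* and *Ednra* are also expressed, were 1188 to 1818 CPM in FA and 855 to 1286 CPM in DE. *Acta2* held most of that sum, at 1151 CPM on average in FA and 745.9 CPM in DE (log2 fold change -0.63, adjusted p = 0.0562, edgeR, not called), while 6 of the 8 markers had a higher fitted value in DE (median log2 fold change 0.20). The 1 called, the pericyte gene *Higd1b*, was higher in DE without overlap (log2 fold change 1.28, adjusted p = 0.0322, edgeR). The part of all these cells in the values of *Agtr1a*, *Agtr2* and the endothelin genes was not tested.

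The wider pathway was followed through 88 further genes in 5 lists, of which 73 were tested and 4 called (5.48%, against 5.8% of all genes). Fitted values were higher in DE for 40 of the 73, with a median log2 fold change of 0.05. The 4 called genes were *Pcsk6*, *Prkcd*, *Col1a1* and *Myh7*, and all were higher in DE. *Col1a1* and *Myh7* were known results of these data when the lists were chosen.

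Among 24 other angiotensin genes, mostly peptidases that make or degrade angiotensins, 17 were tested and 0 called by edgeR, with 8 higher, 9 lower and 1 at an unadjusted p under 0.05. That gene was *Nln*, neurolysin, a peptidase that cuts angiotensin I and other short peptides. It lay between 41.3 and 44.4 CPM in FA and between 32.6 and 38.1 CPM in DE, without overlap (log2 fold change -0.29, adjusted p = 0.0836, edgeR). *Lnpep*, a peptidase that binds angiotensin IV, had the largest difference at -0.89 but an adjusted p of 0.351 by edgeR and a range of -1.44 to -0.12 over the 22 fits, and *Cma1*, the mast cell chymase that makes angiotensin II without *Ace*, had a log2 fold change of -0.30. The level of *Lnpep* was 175, 62.5, 178 and 89.0 CPM in FA replicates 2, 3, 4 and 6 and 99.0, 21.9, 19.5 and 134 CPM in DE replicates 1, 3, 5 and 7.

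Of 8 other endothelin genes, 5 were tested, 4 had a higher fitted value in DE and 1 was called. *Pcsk6*, a proprotein convertase of the furin family, which cleaves secreted precursors, was at 12.9, 8.92, 15.2 and 15.0 CPM in FA replicates 2, 3, 4 and 6. It was at 21.9, 21.9, 20.0 and 21.6 CPM in DE replicates 1, 3, 5 and 7, above every FA library. The difference was 0.71 on the log2 scale (SE 0.15, edgeR adjusted p = 0.0247), and it was called in 18 of the 22 fits. The call was lost without FA replicate 2 (adjusted p = 0.0823, edgeR), without DE replicate 3 (adjusted p = 0.0698, edgeR), within the number 11 (adjusted p = 0.0757, edgeR) and with the 25% difference built into the test (adjusted p = 0.157, edgeR), with log2 fold changes of 0.70 to 0.74. The related convertase *Pcsk5* had a log2 fold change of 0.24 and *Ece2*, a second converting enzyme, of 0.16, and neither passed. *Edn2*, the second endothelin gene, was at 1.65 CPM or less in all libraries, and *Edn3* had 48 counts in all and was not tested. Of 8 kinin genes, 3 were tested and 0 called by edgeR, with 0 at an unadjusted p under 0.05. The carboxypeptidases *Cpd* and *Cpm* had log2 fold changes of -0.25 and 0.06. Over the 22 fits *Cpd* ran from -0.36 to -0.03, *Cpm* from -0.05 to 0.16 and *Ece2* from 0.01 to 0.38.

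The type 1 angiotensin receptor and both endothelin receptors signal in large part through Gq and G12/13 proteins, and the type 2 receptor does not do so in the classical way. Of 27 genes of these routes, all were tested, 12 were higher, 15 lower and 1 was called. *Prkcd*, protein kinase C delta, was at 22.1, 24.0, 24.9 and 23.8 CPM in FA replicates 2, 3, 4 and 6 and at 27.8, 36.3, 37.2 and 33.0 CPM in DE replicates 1, 3, 5 and 7. The groups did not overlap, and the difference was 0.50 on the log2 scale (SE 0.11, edgeR adjusted p = 0.0268), called in 14 of the 22 fits. Within the number 11 it was 0.35 (adjusted p = 0.172, edgeR), and leaving out FA replicate 2, 3 or 4 or DE replicate 3 or 5 ended the call (adjusted p = 0.0573 to 0.0974, edgeR). The call of *Prkcd* was also lost with the number as a term and with the 25% difference built into the test. *Arrb2*, which desensitises such receptors, had a log2 fold change of 0.41 (adjusted p = 0.148) and *Rock1*, a kinase downstream of RhoA, of -0.34 (adjusted p = 0.222, both edgeR). Over the 22 fits *Arrb2* ran from 0.15 to 0.49 and *Rock1* from -0.46 to -0.13.

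Of 21 genes known to respond to angiotensin II or endothelin-1, 14 were higher, 7 lower and 2 called. Over all genes, 5.8% were called. At an unadjusted p under 0.05 (edgeR) the list had 6 genes, against 25.6% of all genes. Both called genes, *Col1a1* and *Myh7*, were known results when the list was chosen, so the count of 2 was not blind to the data. *Col1a1*, the collagen I alpha chain, rose from 495.4 ± 91.5 CPM in FA to 954.1 ± 167.1 in DE (SD, n = 4 each, log2 fold change 0.95, adjusted p = 0.00874, edgeR) and was called in all 22 fits. It is also among the 8 fibroblast markers and part of their sum. All 8 were higher in DE by fit, and *Col1a1* was the only 1 whose levels did not overlap between the groups. *Myh7*, the slow myosin heavy chain of the fetal ventricle, rose from 10022 ± 943.5 to 14494 ± 852.3 CPM (log2 fold change 0.53, adjusted p = 0.0157, edgeR). *Myh7* was called in 19 of the 22 fits, also on leaving out any one library. The call was lost within the number 11 (log2 fold change 0.52, adjusted p = 0.0724, edgeR), with the number as a term (0.53, adjusted p = 0.0512, edgeR) and with the 25% difference built into the test (adjusted p = 0.222, edgeR). *Nppa*, atrial natriuretic peptide, had a log2 fold change of -0.82 and did not pass (adjusted p = 0.0821, edgeR). It was called in 4 of the 22 fits, namely DESeq2, the likelihood ratio test, length offsets and without FA replicate 2 (log2 fold change -1.04, adjusted p = 0.0191, edgeR). Its FA values ran from 357.4 to 952.9 CPM. The atrial marker sum, which includes it, ran from 513.6 to 1283 CPM in FA and from 507.8 to 789.9 CPM in DE. Of the 5 atrial markers, *Nppa* alone had a lower fitted value in DE and 4 were higher (median log2 fold change 0.24 over all 5).

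In the comparison of DE libraries by number, 15 of the 21 response genes were higher in number 12 and 2 were called (9.52%, against 2.06% of all genes), *Ankrd1* and *Atf3*. *Ankrd1*, a stretch-responsive sarcomere protein, was at 1407 and 1504 CPM in DE replicates 3 and 5 and at 896.6 and 910.4 CPM in DE replicates 1 and 7 (log2 difference 0.69, adjusted p = 0.0415, edgeR). *Atf3*, a stress-response transcription factor, was at 285.3 and 286.4 CPM against 167.8 and 163.6 CPM in the same libraries (log2 difference 0.79, adjusted p = 0.0339, edgeR). As given above for *Edn1*, few or no genes of the whole table were called once a DE library was left out. Like *Edn1*, both had their highest values in the 2 libraries of number 12, and neither was called between DE and FA (log2 fold changes 0.22 and 0.00, adjusted p = 0.451 and 0.996, edgeR).

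The genes whose deviations from the group means followed a member most closely were listed for the 3 members with the smallest adjusted p. For *Edn1* they were *9530082P21Rik* (Pearson r = 1.00), *Nectin2* (0.99) and *Pgf* (0.98), and 142 of 10706 genes had r over 0.9. For *Agtr2* they were *Cux1* (0.95), *Snap29* (0.94) and *Mospd1* (0.92), with 5 of 10707 genes over 0.9. For *Agtr1a* they were *Cln8* (0.96), *Usp19* (0.96) and *Slc25a27* (0.95), with 11 of 10706 over 0.9. These are descriptions over the same 8 libraries, whose values share depth, transcript length effects and the split by number.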

How the data were processed

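RNA-seq was performed on NCMs from 4 FA and 4 DE male neonates, grouped by their labels. The authors enriched poly-A RNA, made stranded libraries, aligned reads to mm10 with TopHat, marked duplicates without removing them and counted with featureCounts. The submitters' processing notes also name FastQC, Picard, GATK and Cufflinks. What was deposited is a table of raw counts by Entrez gene, not normalized. Duplicates that remain in the counts may overstate precision, which was not tested. The strand setting and the handling of reads on several genes are not given in the sources used here, so values of genes with an overlapping antisense transcript (*Ace*, *Edn1*, *Ece1* and *Ednra*) are uncertain to that extent. The methods state n = 3 per group without naming the libraries, so all 8 were used. That the neonates came from separate litters is not stated, so p-values measure the spread between these hearts. The lowest chi-square per gene between libraries of a group was 5.06, above sampling noise for every pair.

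Symbols were matched for 25275 of 27179 genes. Genes were filtered with filterByExpr (minimum count of 10), scaled by TMM factors (0.969 to 1.06) and tested with glmQLFTest of edgeR 4.0.16 in R 4.3.3, with exposure as the sole term and Benjamini-Hochberg adjustment over all 14966 genes. CPM uses the same factors. Ratios used a prior count of 0.5. Alternatives were DESeq2 1.42.0, the likelihood ratio test, the test against a 25% difference, the adjusted p with no minimum difference, other scalings and filters, the number in the sample name, and each library left out. Length offsets, the genes with a length (90.3% of those tested) and leaving out libraries in the comparison of numbers were added after seeing the data. The fits were tested on simulated data. The members and lists were chosen with earlier results of these data known, and *Col1a1* and *Myh7* were among those results. The text names all members, the called genes of each list filled up to 3 with the largest fold changes at 1 CPM or more, and the genes most like 3 members at 5 CPM or more. *Edn2*, *Edn3*, *Ren1*, *Agtr1b*, *Ankrd1* and *Atf3* were named outside this rule, the last 2 after their values were seen. The result of 1 gene is not reported here, and genes of the lists that the text does not name enter by counts alone. Promoters are from RefSeq on GRCm38.p6, with entries for 8 of the 9 members. The remaining marker lists (endocardial, leukocyte, mast cell, erythroid, Schwann, mesothelial) had sums in CPM of 206 to 251, 11.9 to 18.2, 63.9 to 75.6, 759.2 to 1880, 6.79 to 15.9 and 97.8 to 126.7 in FA, and of 240.1 to 311.8, 15.1 to 25.8, 61.0 to 76.0, 1209 to 2022, 5.44 to 6.87 and 92.2 to 130.9 in DE.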

Additional observations from a re-analysis of the deposited data

Results flagged for a closer look

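*Agtr1a* in DE was picked out because DE replicate 1, at 21.8 CPM, stood apart from the other 3 DE libraries, with a gap of 0.854 of the range of the group. *Pcsk6* in DE was picked out because DE replicate 5, at 20.0 CPM, stood below the other 3 (0.845 of the range), and it was still above every FA library. These were 2 of 54 groups of 4 libraries examined, and chance alone picks out about 1 in 20.

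*Edn1* differed between DE libraries of number 12 and 11 by 0.63 on the log2 scale, as described above. *Lnpep*, with a transcript of 12052 bases, differed by -2.49 (adjusted p = 0.0339, edgeR), from 99.0 and 134 CPM in DE replicates 1 and 7 to 21.9 and 19.5 CPM in DE replicates 3 and 5. With offsets for transcript length it differed by -2.02 (adjusted p = 0.0149, edgeR). Its FA values, all of number 11, ran from 62.5 to 178 CPM.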

How the results depend on the processing

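The comparison of DE with FA was repeated under 21 alternatives, 2 of them added after the data were seen, and that of the numbers under 10, of which 9 were added. Between DE and FA, the members called numbered 0 in all but 1 of the 21 alternatives. They were 0 to 1 on leaving out each library, the 1 being *Edn1* without DE replicate 1. Log2 fold changes of *Agt*, *Agtr1a*, *Agtr2*, *Atp6ap2*, *Edn1* and *Ece1* kept their sign in all 22 fits. *Ednrb* changed sign to 0.042 with library totals alone, 0.14 with the number as a term and 0.14 within the number 11, and ran from -0.15 to 0.10 on leaving out each library, above 0 without FA replicate 6 (0.058) or DE replicate 5 (0.099). *Ednra* changed to 0.054 with the number as a term and 0.050 within the number 11. *Ace* ran from -0.23 (without DE replicate 1) to 0.43 on leaving out each library. With the number as a term *Ace* was at 0.56 and *Ece1* at 0.40, and within the number 11 they were at 0.55 and 0.39. The ratio of *Edn1* to *Ece1* ran from -0.0015 (without DE replicate 5) to 0.44. The causes were not tested.

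Genes called over the whole table were 868 as reported, 1633 with DESeq2, 1603 with the likelihood ratio test, 114 with the 25% difference built in (44 higher and 70 lower), 448 with the number as a term, 260 within the number 11 and 1382 with length offsets. They ran from 237 (without FA replicate 4) to 1168 (without DE replicate 1), and were 249 and 433 with FA replicates 2 and 3 left out in turn, and 268 and 526 with DE replicates 3 and 5 left out in turn. With library totals alone the split was 803 higher and 217 lower, against 536 and 332. The 4 other pathway genes called became 1 with the 25% difference built in, 2 with the number as a term and 1 within the number 11, and 2 to 5 on leaving out each library, lowest without DE replicate 3.

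Members called between the numbers were 1 as reported, 2 with the likelihood ratio test (1273 of all genes, against 309 as reported), 2 with length offsets (378 genes) and 0 to 2 on leaving out each library, where a lone DE library of a number is assumed to vary like the others. They were 2 without FA replicate 3 (1031 genes) or FA replicate 6 (401 genes). No paired analysis was possible because the groups share fewer than 2 replicate numbers (3 alone).

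Low counts limit *Agtr2* and *Agt* most: the floor of 3 counts equals 0.0748 to 0.169 CPM, and for *Agtr2* the interval of the log2 fold change spans 0.21 to 1.69.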
